A study of Mus musculus with 6 samples.

Results

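The genes described here make ribosomes: a list of 38 genes for ribosome biogenesis and the polyamine enzymes that usually accompany it, read in mouse embryonic stem cells held at opposite settings of the Wnt pathway. Genes entered by name and not by their own differences, but the list was chosen with earlier results of these data known, the fall of Myc among them. Of the 38, 36 had a probe set assigned to a single gene, among 19937 genes measured. Ppan shared its probe set with another gene and was not used here, and Noc2l was not analysed here. Total RNA from 6 arrays was compared, all of 1 V6.5 embryonic stem cell line that carries a Ctnnb1-Biotin-3xFLAG knock-in (named Ctnnb1-BioFLneo;BirA), which puts a tag on endogenous β-catenin and includes the biotin ligase BirA. Cultures in both groups had serum, LIF and feeder cells of DR4 mice. In 3 cultures GSK3 was inhibited with CHIR99021 (3 µM), which raises β-catenin; the other 3 received XAV939, a tankyrase inhibitor that lowers it, for which the sample labels write 3 µM and the treatment protocol 1 µM. Both treatments lasted 24 h. There were no untreated arrays here, so a difference belongs to the pair of treatments and not to either compound. Whether replicates were separate cultures or feeder cells were removed before RNA isolation is not stated, so p-values measure only the spread between these arrays.

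Ribosomes are built in the nucleolus. RNA polymerase I transcribes the long ribosomal RNA precursor, small nucleolar ribonucleoproteins (snoRNPs) guide its methylation and pseudouridylation, and a succession of assembly factors cleaves, folds and joins it to ribosomal proteins to form the small and large subunits. The MYC transcription factors bind many of these genes, commonly at the E-box CACGTG, and ribosome production limits how fast cells can grow. Embryonic stem cells divide fast and have prominent nucleoli.

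The E-box was looked up in the RefSeq promoter table (GRCm38.p6), which holds a window of 300 bases around each annotated start, mostly before it. E-boxes outside these windows were not looked up. CACGTG reads the same on both strands. A window was listed for 31 of the 38 genes, and not for Srm, Npm1, Tcof1, Fbl, Rrp12, Bop1 or Rrs1. Of the 31, 7 (22.6%) held the motif, against 8.09% of 27025 genes with a window. Counted by window the shares were 17.9% of 39 and 7.15% of 32851. Of 252 windows of the other pathway genes described further on, ribosomal proteins included and the MYC network left out, 19% held it. The 7 genes are shown with 30 bases at each match, 5′ to 3′ on the gene's strand, because this is the sequence MYC dimers are known to bind; capitals mark the E-box.
Nop2: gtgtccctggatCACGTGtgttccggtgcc
Pes1: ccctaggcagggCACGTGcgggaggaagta
Rrn3, far match: gagcgccaaggtCACGTGcacacgcctcta
Rrn3, near match: ttacgctctgctCACGTGggccgcgtcccg
Utp20: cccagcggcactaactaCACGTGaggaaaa
Wdr43: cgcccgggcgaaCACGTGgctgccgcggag
Mybbp1a: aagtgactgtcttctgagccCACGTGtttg
Nle1: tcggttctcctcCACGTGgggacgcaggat
The match of Nop2 (chr6:125131811-125131840, plus strand) began 60 bases before the start, and those of Rrn3 (chr16:13780472-13780501 and chr16:13780639-13780668, plus strand) 215 and 48 bases before it. In Pes1 (chr11:3963965-3963994, plus), Wdr43 (chr17:71616220-71616249, plus), Nle1 (chr11:82908355-82908384, minus), Utp20 (chr10:88826765-88826794, minus) and Mybbp1a (chr11:72441347-72441376, plus) it began at base 3, 18, 24, 38 and 41 of the transcript. A match describes these letters only and is not evidence of binding.

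The MYC genes differed clearly between the treatments. Mycn, the MYC family member prominent in embryonic stem cells, was at log2 levels of 9.67, 9.78 and 9.82 with CHIR99021 and 10.66, 10.63 and 10.62 with XAV939. Myc was at 8.52, 8.39 and 8.65 against 9.18, 9.22 and 9.23. For both genes every CHIR99021 array lay below every XAV939 array. The fall was 1.84-fold for Mycn (log2 difference -0.88 ± 0.06, SE; adjusted p = 5.63e-06) and 1.61-fold for Myc (-0.68 ± 0.07; adjusted p = 1.05e-04) in limma's moderated test, adjusted over all genes. All differences here are CHIR99021 minus XAV939 on the log2 scale, with 3 arrays per treatment. Axin2, a direct target of β-catenin used here to check the treatments, rose 3.75-fold (1.91 ± 0.09; adjusted p = 5.43e-07, limma).

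The ribosome biogenesis genes themselves differed far less. Of the 36 measured, 2 fell (Srm and Nle1), none rose, and 34 did not pass an adjusted p of 0.05; the share called lower, 5.556%, stood beside 4.34% of all genes, and the share called in either direction beside 9.65%. No gene called higher stood beside 5.31% of all genes, and among genes at or above the median level, where all 36 lay, 7.96% were called lower. None was higher at an unadjusted p under 0.05 either, and 9 of 36 were lower at that level, beside 9.4% of all genes lower and 20.6% in either direction. The sign leaned one way: 30 of 36 differences were negative, beside 47% of all genes, and the median difference was -0.076, beside 0.0066 for all genes and 0.0080 for those at or above the median level. Differences ran from -0.28 to 0.070. The 95% confidence intervals of the 36 genes reached at most to -0.43, or 1.35-fold lower, while that of Myc ran from -0.84 to -0.53 and that of Mycn from -1.003 to -0.76. Arrays of the treatments did not overlap in 10 genes in the lower direction and 2 in the higher one, beside 11% and 14.1% of all genes and 25.1% in either direction.

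**Figure D1:**
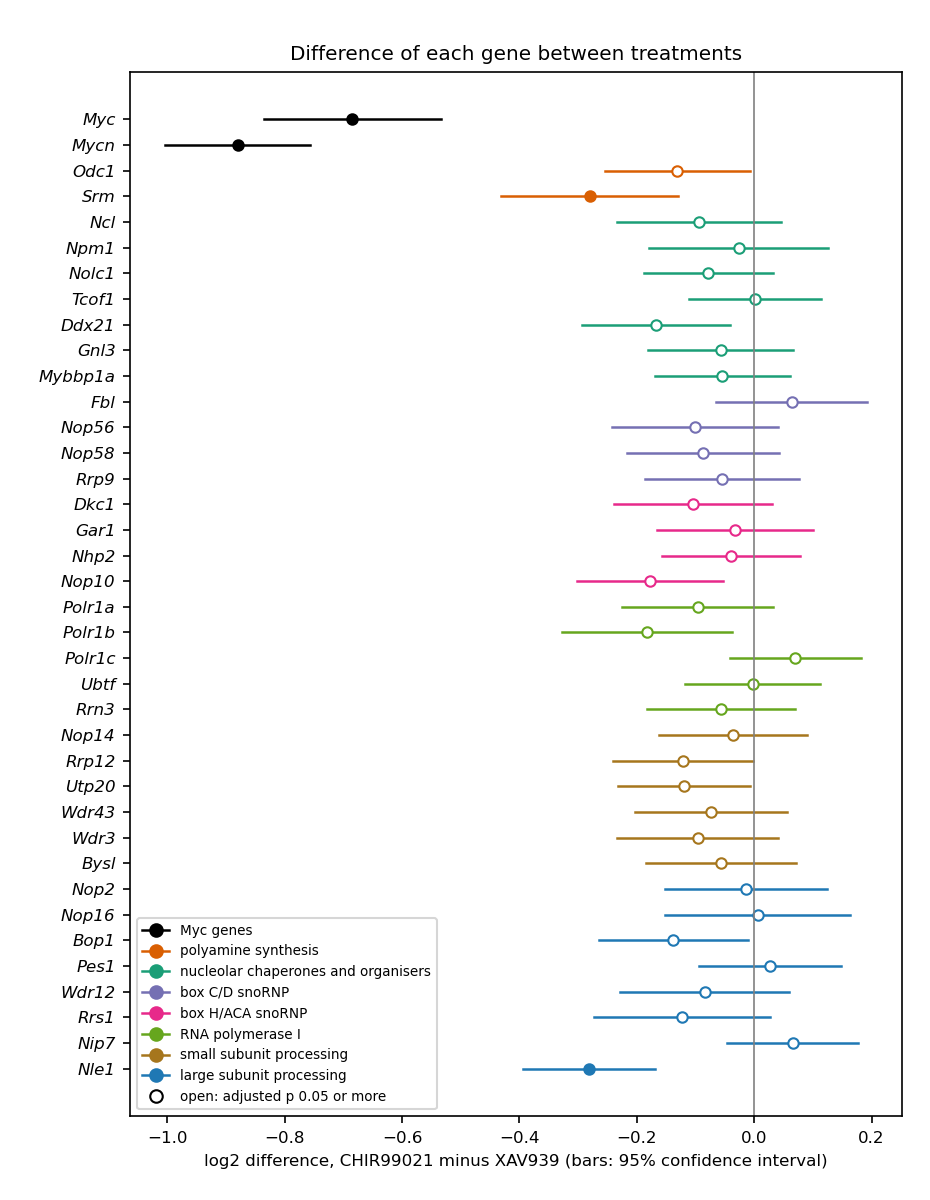
Log2 difference between CHIR99021 and XAV939 (x axis) for Myc, Mycn and the 36 ribosome biogenesis genes (y axis, coloured by role), with 95% confidence intervals as bars from the limma fit of 3 arrays per treatment; filled points passed an adjusted p of 0.05. Only Srm and Nle1 among the 36 are filled, 30 points lie left of 0, and no interval of the 36 extends below -0.43, short of those of Myc and Mycn.

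The count rested on the arrays used, and the array of XAV939 replicate 1 stood apart. In 26 of 36 ribosome biogenesis genes this array was below both other XAV939 arrays, as it was in 36.4% of all genes. The median deviation of the 36 genes from their own means was -0.028 on it, against 0.053 and 0.072 on XAV939 replicates 2 and 3, and -0.048, -0.028 and -0.030 on the CHIR99021 arrays. By this median it thus lay with the CHIR99021 arrays, while Mycn, Myc and Nle1 on it were as on the other XAV939 arrays. Srm, at 11.55, was higher on it than on XAV939 replicates 2 and 3 (11.50 and 11.47). Without it, 3 of 36 fell (Nle1, Ddx21 and Polr1b), 33 differences were negative and the median was -0.10. The count was 1, Nle1 each time, when either of CHIR99021 replicates 1 and 2 or either of XAV939 replicates 2 and 3 was dropped, and 2 when CHIR99021 replicate 3 was. With arrays weighted by their quality in the fit, 5 fell: Srm, Nle1, Ddx21, Nop10 and Polr1b. The share of all genes called in either direction also rose, to 11.3% without XAV939 replicate 1 and 14.3% with weights.

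**Figure D2:**
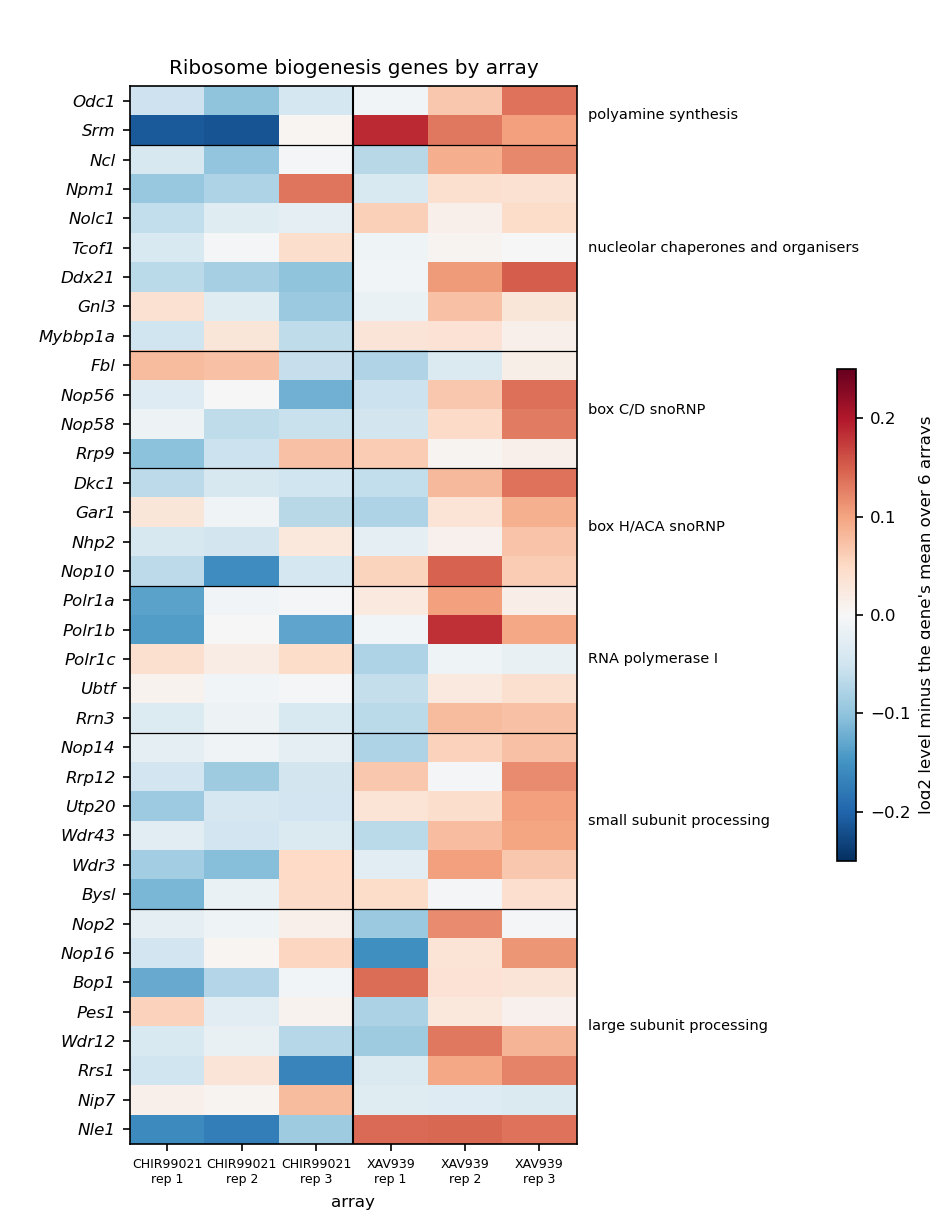
Log2 level of each of the 36 genes (rows, grouped by role) on each array (columns), as the deviation from the gene's mean over 6 arrays; red is higher, blue lower. Most rows are bluer on the left and redder on XAV939 replicates 2 and 3, XAV939 replicate 1 is pale or blue in many rows (26 of 36 below both other XAV939 arrays), and the row of Nle1 splits by treatment, as does that of Srm apart from a pale CHIR99021 replicate 3.

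Polyamines stabilise RNA and are needed for rapid growth, and both genes of their synthesis in the list are textbook MYC targets. Srm, which encodes spermidine synthase, was at 11.15, 11.15 and 11.37 with CHIR99021 and 11.55, 11.50 and 11.47 with XAV939. The treatments did not overlap, although CHIR99021 replicate 3 came within a short distance of the XAV939 arrays. The fall was 1.21-fold (-0.28 ± 0.07; adjusted p = 0.0259 in limma). It passed when CHIR99021 replicate 3 was left out and missed when any other array was, with adjusted p of 0.111 and 0.122 in the absence of CHIR99021 replicate 1 and 2, and of 0.0571, 0.0689 and 0.0570 in that of XAV939 replicate 1, 2 and 3; it also missed with every probe set tested (0.1101) and by ordinary least squares (0.189). Odc1, encoding ornithine decarboxylase, the rate-limiting enzyme of the pathway, was at 11.76, 11.71 and 11.76 against 11.80, 11.88 and 11.94. Its arrays did not overlap, and its difference of -0.13 ± 0.06 did not pass (adjusted p = 0.210, limma). A further Odc1 probe set gave -0.16, and whether either reads a copy of the gene is not known here.

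Other genes of polyamine metabolism went in both directions. Of 7 measured, 2 rose, 1 fell and 4 did not pass, beside 5.31% of all genes higher and 4.34% lower. Sat1, the acetyltransferase that starts polyamine breakdown and export, was at 8.73, 8.59 and 8.89 with CHIR99021 and 8.11, 7.95 and 8.13 with XAV939, a 1.59-fold rise (0.67 ± 0.08; adjusted p = 3.79e-04, limma). Smox, spermine oxidase, rose by 0.34 ± 0.07. Dhps, which uses spermidine to make the hypusine residue of the translation factor eIF5A, fell by 0.25 (adjusted p = 0.0291, limma). Dropping CHIR99021 replicate 1, CHIR99021 replicate 2, XAV939 replicate 2 or XAV939 replicate 3 ended that call (0.0671 to 0.135), as did ordinary least squares (0.164) and testing every probe set (0.108). By those alternatives Smox was at 0.135 and 0.0588, and Sat1 missed by least squares (0.0674). The 2 genes that rose encode enzymes acting on finished polyamines, as does Dhps, which fell.

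Nucleolar organisers and chaperones did not pass in any of 7 cases, with a median of -0.057 and 1 of them lower at an unadjusted p under 0.05. Ncl, nucleolin, an abundant RNA-binding protein of the nucleolus, was at 12.11, 12.05 and 12.14 with CHIR99021 and 12.08, 12.24 and 12.27 with XAV939. XAV939 replicates 2 and 3 were above all CHIR99021 arrays, and XAV939 replicate 1 was within their range. Npm1, nucleophosmin, was at 11.83, 11.85 and 12.06 against 11.89, 11.97 and 11.96, with CHIR99021 replicate 3 the highest of all arrays, and its difference of -0.026 ± 0.068 changed sign without CHIR99021 replicate 1 (0.015) or 2 (0.0059). Ddx21, an RNA helicase that links RNA polymerase I transcription to processing, was at 11.11, 11.10 and 11.08 against 11.17, 11.28 and 11.33. Its arrays did not overlap and its difference was -0.17 ± 0.06 (adjusted p = 0.108, limma), which passed without XAV939 replicate 1 at -0.21 (adjusted p = 0.0280).

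The other 4 organisers differed by less than 0.1. Nolc1, a chaperone of snoRNPs, had arrays that did not overlap (10.15, 10.18 and 10.19 against 10.27, 10.23 and 10.26) and a difference of -0.078 ± 0.049. Gnl3, nucleostemin, a nucleolar GTPase high in stem cells, differed by -0.057 ± 0.056. Mybbp1a, a nucleolar protein bound to RNA polymerase I, differed by -0.054 ± 0.052. Tcof1, treacle, a scaffold of ribosomal gene transcription, differed by 0.0011 ± 0.0504, with all arrays between 9.11 and 9.20. Of these genes only Mybbp1a held an E-box in its window; Tcof1 and Npm1 had no window listed.

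Among box C/D snoRNP genes, whose products methylate ribosomal RNA, none of 4 passed in limma or at an unadjusted p under 0.05. Nop56, a core subunit, was at 11.63, 11.66 and 11.54 with CHIR99021 and 11.60, 11.72 and 11.79 with XAV939, and its partner Nop58 at 11.19, 11.14 and 11.15 against 11.16, 11.25 and 11.33. In both genes XAV939 replicate 1 fell inside the CHIR99021 range while XAV939 replicates 2 and 3 were above it. Their differences were -0.10 ± 0.06 and -0.087 ± 0.058. Fbl, fibrillarin, the methyltransferase of the complex, was at 10.27, 10.27 and 10.14 against 10.12, 10.16 and 10.21 and differed in the positive direction, by 0.064 ± 0.058. A second Fbl probe set of lower level gave 0.011. RefSeq lists 1 Fbl pseudogene, and which of these probe sets reads the gene itself is not known here. Rrp9, which binds the U3 particle needed for the first cleavages, differed by -0.055 ± 0.059.

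The box H/ACA snoRNP has a core of 4 proteins, all in the list, and none passed; 1 was lower at an unadjusted p under 0.05. Nop10, its smallest subunit, was at 10.56, 10.47 and 10.58 with CHIR99021 and 10.68, 10.77 and 10.68 with XAV939. The treatments did not overlap and the difference was -0.18 ± 0.06 (adjusted p = 0.0818, limma), past the threshold only with weighted arrays (adjusted p = 0.0189). Dkc1, dyskerin, the pseudouridine synthase, was at 10.52, 10.54 and 10.53 against 10.52, 10.67 and 10.72, a difference of -0.10 ± 0.06. Its 3 CHIR99021 arrays and XAV939 replicate 1 were nearly equal. Nhp2 and Gar1, the remaining subunits, differed by -0.040 ± 0.053 and -0.032 ± 0.060, and Gar1 was at 0.0048 without XAV939 replicate 3.

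RNA polymerase I and its initiation factors had 4 of 5 differences negative, with none past the threshold and 1 lower at an unadjusted p under 0.05. Polr1b, the second largest subunit, was at 10.20, 10.34 and 10.21 with CHIR99021 and 10.33, 10.52 and 10.44 with XAV939. The ranges overlapped slightly, and its difference was -0.18 ± 0.07 (adjusted p = 0.129, limma), which passed without XAV939 replicate 1 at -0.23 (adjusted p = 0.0460). Polr1a, the catalytic subunit, was at 9.001, 9.13 and 9.13 against 9.16, 9.24 and 9.15, without overlap but by -0.096 ± 0.058. Polr1c, a subunit shared with RNA polymerase III, was higher on every CHIR99021 array (10.14, 10.11 and 10.14 against 10.02, 10.09 and 10.08), by 0.070 ± 0.050, and did not pass. Rrn3, the initiation factor that responds to growth signals and the member with 2 E-box matches, differed by -0.057 ± 0.057. Ubtf, the architectural factor of ribosomal DNA, differed by -0.0027 ± 0.0518, with a 95% confidence interval from -0.12 to 0.11.

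All 6 factors of small subunit processing had negative differences, with a median of -0.085, and none passed in limma; 2 were lower at an unadjusted p under 0.05. Rrp12, an export and maturation factor, was at 9.30, 9.26 and 9.30 with CHIR99021 and 9.42, 9.35 and 9.47 with XAV939. Utp20, a very large scaffold of the small subunit processome, was at 9.69, 9.74 and 9.73 against 9.81, 9.82 and 9.88. In both the treatments did not overlap, and both differed by -0.12 ± 0.05 (adjusted p = 0.232 and 0.211, limma). Wdr3 and Wdr43, processome subunits with WD repeats, differed by -0.096 ± 0.062 and -0.073 ± 0.058. Bysl, bystin, of the late small subunit precursor, differed by -0.057 ± 0.057 and Nop14, of the processome, by -0.035 ± 0.057.

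Large subunit processing held the clearest single change. Nle1, a notchless homologue, is acted on by the AAA-type ATPase of the pathway, which releases assembly factors from the large subunit precursor. Nle1 was at 8.52, 8.51 and 8.59 with CHIR99021 and 8.82, 8.82 and 8.82 with XAV939. The XAV939 arrays were almost equal and all lay above the CHIR99021 arrays. The fall was 1.22-fold (-0.28 ± 0.05; adjusted p = 0.00503, limma), and it passed in each of 17 alternatives run for single genes, at adjusted p of 0.00107 to 0.0344, and at a threshold of 0.01. Its E-box, at base 24 of the transcript, is among those shown above. The other genes shown there did not pass, and Srm had no window listed. Of 8 measured genes of this group Nle1 was the 1 that fell, none rose, and the median was -0.049.

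Bop1, Pes1 and Wdr12 form the PeBoW complex, which is needed for large subunit processing, and their values did not run together. Bop1 was at 9.54, 9.59 and 9.66 with CHIR99021 and 9.80, 9.70 and 9.70 with XAV939, without overlap, by -0.14 ± 0.06 (adjusted p = 0.198, limma). Wdr12 was at 9.96, 9.98 and 9.93 against 9.91, 10.13 and 10.09, by -0.084 ± 0.064. A second Wdr12 probe set of lower level gave -0.20, and which of them reads the gene itself is not known here. Pes1 was at 10.06, 9.98 and 10.01 against 9.92, 10.03 and 10.01, by 0.027 ± 0.054, which was -0.0050 without XAV939 replicate 1. On XAV939 replicate 1 Bop1 was at its highest and Pes1 and Wdr12 at their lowest.

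Of the remaining large subunit genes, Rrs1, which brings the ribonucleoprotein of the smallest ribosomal RNA into the subunit, differed by -0.12 ± 0.07. Nop2, a ribosomal RNA methyltransferase, differed by -0.014 ± 0.062 and was at 0.041 without XAV939 replicate 2. Nop16, a nucleolar protein of the early large subunit, was at 9.94, 9.99 and 10.04 with CHIR99021 and 9.83, 10.02 and 10.10 with XAV939, by 0.0059 ± 0.0710, with the widest XAV939 spread of the 36 genes (SD 0.14, n = 3). Its sign turned without CHIR99021 replicate 3 (-0.019) or XAV939 replicate 1 (-0.069). Nip7, an assembly factor of the large subunit, was higher on every CHIR99021 array (8.81, 8.81 and 8.88 against 8.77, 8.77 and 8.77), by 0.066 ± 0.050, and did not pass (adjusted p = 0.562, limma).

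**Figure D3:**
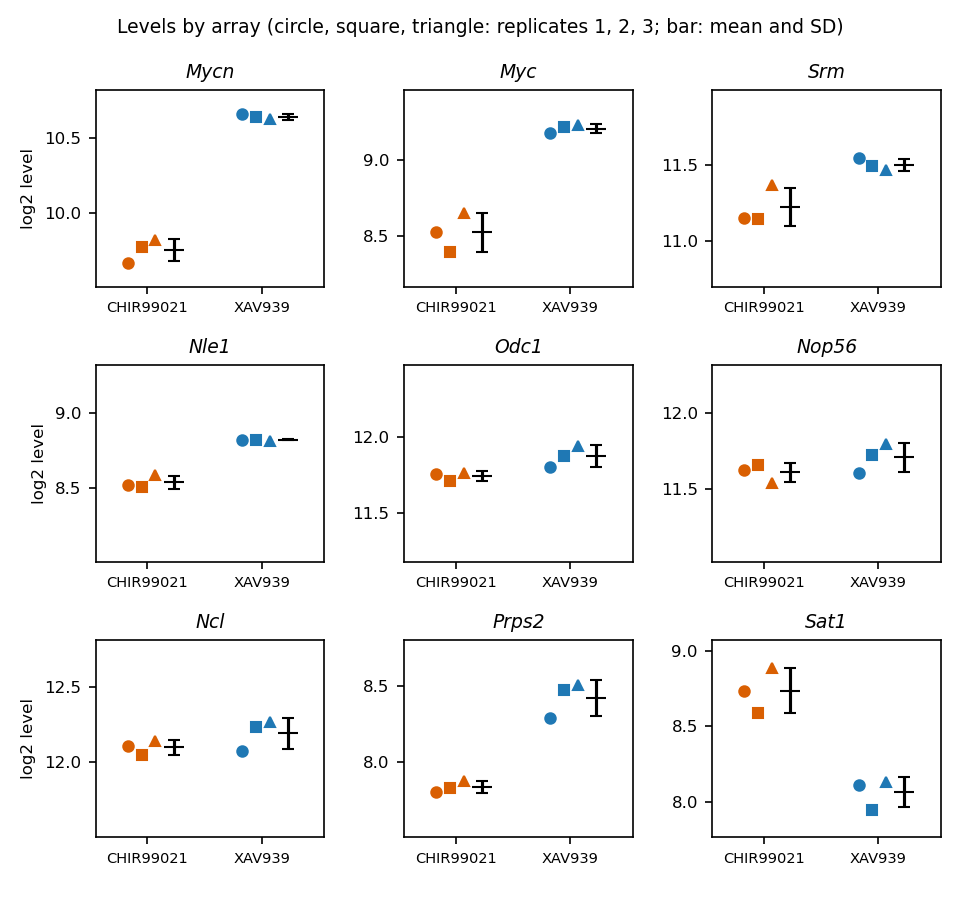
Log2 level (y axis, the same span in each panel) of Mycn and Myc, of 5 genes of the list, and of Prps2 and Sat1, by array; circles, squares and triangles are replicates 1, 2 and 3, and the bar is the mean with its SD (n = 3). Mycn and Myc are separated by 0.88 and 0.68, Srm and Nle1 by 0.28, while Odc1, Nop56 and Ncl differ by 0.13 or less.

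The pathway was followed beyond the list in 279 further genes, of which 242 were measured; 2 rose, 4 fell and 153 differences were negative, with a median of -0.023. The 2.479% called stood beside 9.65% of all genes. Without XAV939 replicate 1, where 11.3% of all genes were called, the count was 15, with 2 higher and 13 lower, among them Naf1, Nol10, Mrto4, Exosc2 and Gtpbp4 of snoRNP and subunit assembly and of the exosome, named after their values were seen. Counts with any other single array left out were 4 to 6.

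Among 41 further small subunit factors, none passed in limma and 1 was lower at an unadjusted p under 0.05, with a median of -0.029. Of 49 further large subunit factors, 1 fell, none rose and the median was -0.037. The 1 that fell was Gnl3l, a nucleolar GTPase related to nucleostemin, at 9.40, 9.47 and 9.65 with CHIR99021 and 9.71, 9.80 and 9.86 with XAV939 (-0.28 ± 0.07; adjusted p = 0.0328, limma). It missed the threshold when CHIR99021 replicate 1, CHIR99021 replicate 2, XAV939 replicate 2 or XAV939 replicate 3 was dropped (0.0913 to 0.135), by ordinary least squares (0.221) and with every probe set tested (0.134). None of 10 further snoRNP genes (median -0.020), 14 exosome and nuclease genes (-0.029), 15 further RNA polymerase I genes (0.012) or 19 RNA polymerase III genes (-0.023) passed. At an unadjusted p under 0.05 these 4 groups held 1, 1, 2 and 2 lower genes, and 3 higher in the last.

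Ribosomal protein genes, the structural end of the pathway, showed no lean. Of 55 measured by a probe set of a single gene, none passed in limma, 1 was lower at an unadjusted p under 0.05, 28 differences were negative and 27 positive, and the median was -0.0015. In the alternatives, Rpl12 was called lower without XAV939 replicate 1, and Rps13 with the mean of a gene's probe sets. Their mean log2 level was 11.17 to 11.25 on the CHIR99021 arrays and 11.20 to 11.23 on the XAV939 arrays. Many of these genes have processed copies in the genome that share probe sequence, so single values are uncertain, and 24 of 79 were not used here. None of 15 translation factor genes passed either, or had an unadjusted p under 0.05 (median -0.028).

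Nucleotide synthesis, which feeds ribosomal RNA production, had 2 of 17 genes lower and none higher, beside 4.34% of all genes lower and 7.96% of those at or above the median level, with a median of -0.028. Both encode phosphoribosyl pyrophosphate synthetase, the enzyme that makes the sugar phosphate shared by purine and pyrimidine synthesis. Prps2 was at 7.80, 7.82 and 7.88 with CHIR99021 and 8.29, 8.47 and 8.51 with XAV939, a 1.505-fold fall (-0.59 ± 0.07; adjusted p = 2.30e-04, limma). Prps1 was at 10.85, 10.88 and 10.79 against 11.10, 11.23 and 11.29, a 1.29-fold fall (-0.36 ± 0.06; adjusted p = 0.00356, limma). In both genes the treatments did not overlap, and Prps1 missed by ordinary least squares (0.0813). Beside the same shares, of 12 MYC network genes, 3 fell: Mycn, Myc and Mga, a repressor that dimerises with Max (-0.24 ± 0.06; adjusted p = 0.0300, limma). Dropping any single array other than XAV939 replicate 1 ended the call of Mga (0.0643 to 0.117), as did ordinary least squares (0.141) and testing every probe set (0.102). Max itself, the shared partner of all MYC proteins, did not pass (-0.17 ± 0.07; adjusted p = 0.190, limma).

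**Figure D4:**
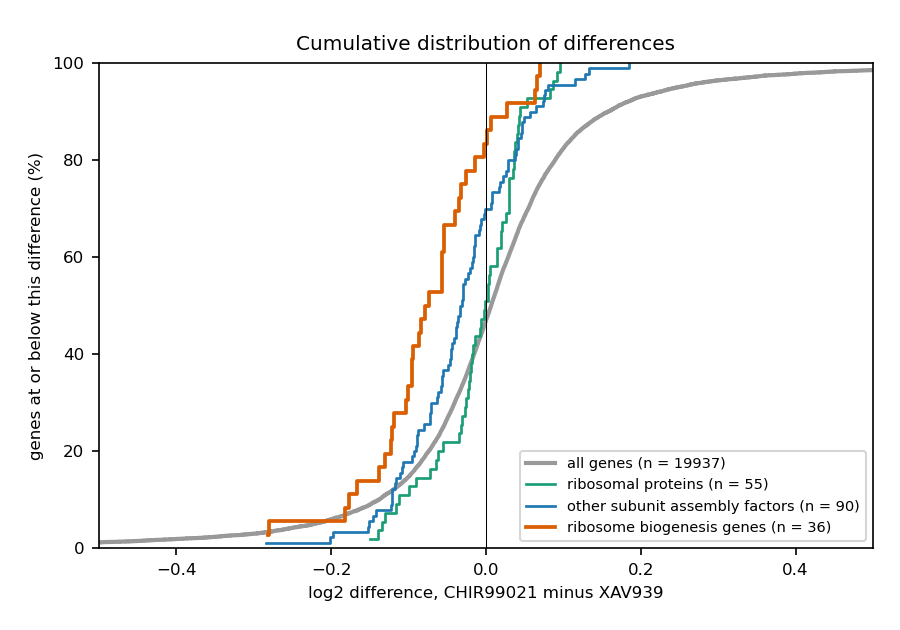
Share of genes (y axis, %) at or below each log2 difference (x axis) for all 19937 genes, 55 ribosomal protein genes, 90 other subunit assembly factors and the 36 ribosome biogenesis genes; 527 genes beyond 0.5 in either direction are off the axis. The curve of the 36 genes crosses 0 near its top (30 of 36 negative), that of the assembly factors at 63 of 90, and that of ribosomal proteins at 28 of 55.

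The cells carried the markers of their label. All 10 embryonic stem cell markers had log2 levels from 8.03 (Klf4) to 12.67 (Dppa5a) over all arrays, where the median over probe sets was 5.67 to 5.71. Of these, 3 rose (Klf4 by 0.81, Nanog by 0.49 and Zfp42 by 0.25) and 4 fell (Utf1 by 0.67, Tdgf1 by 0.63, Lin28a by 0.21 and Sall4 by 0.20), while Pou5f1, Sox2 and Dppa5a did not pass. Beside these counts stood 5.31% of all genes higher and 4.34% lower. Beside the same shares, of 15 feeder fibroblast markers 4 rose (Col1a1 2.07-fold, Pdgfrb 1.51-fold, Col1a2 1.32-fold and Col5a1 1.298-fold) and none fell. Differences were positive in 12 of the 15 and negative in 3. The lowest was Twist1, at -0.19 with arrays that did not overlap, which did not pass (adjusted p = 0.173, limma). The mean log2 level of the 15 was 5.84 to 5.86 on CHIR99021 arrays and 5.62 to 5.73 on XAV939 arrays. Col1a1 was at 8.26, 8.29 and 8.34 with CHIR99021 and 7.30, 7.18 and 7.26 with XAV939, while Dcn, Lum, Postn and Fap were between 3.98 (Lum) and 4.47 (Dcn) on every array. The part of feeder RNA in the differences above was not tested. In RNA from whole cultures, fewer cells of a type and less RNA per cell cannot be told apart, and because RMA brings all arrays to one distribution, a change in total RNA or ribosome content per cell would not be seen.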

How the data were processed

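RMA log2 expression values per probe set were deposited by the authors; RMA is named in the submitters' processing notes. For its version and for a build, the entry is "not given in the sources used here". The method corrects background and quantile-normalises arrays, and compresses differences of weakly expressed genes. Of 34760 probe sets, 21640 had 1 gene in the platform annotation; the probe set with the highest mean stood for each gene. Levels of genes were not ranked against each other, and the array median served only as a mark of signal, since probe sets differ in response. Symbols of 3 pathway genes were matched through older names. Positions of probe sets were not used here, so whether a probe set reads its gene or a copy of it is not known.

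CHIR99021 was compared with XAV939 by limma 3.58.1 (lmFit, eBayes) in R 4.3.3 over all 19937 genes, with Benjamini-Hochberg adjustment; figures used matplotlib 3.10.9. An exact permutation of 3 against 3 cannot give p below 0.1 and was not used. The number of arrays limits precision. On simulated data for this contrast (19937 genes, 5 simulations, 250 planted per size in all) the fit recovered 0.8% of planted log2 differences of 0.15, 38.8% of 0.3, 70.8% of 0.5 and 98.4% of 1. The planted genes were a far smaller share of all genes than the 9.65% called in the data. The adjusted threshold was therefore stricter in the simulations, and these recoveries may be too low for the data. How often changes of the size seen here are missed singly was not established.

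Members and lists were chosen with earlier results of these data known. All 38 members were named; of other lists, genes past the threshold (5 or fewer per direction), plus Myc, Mycn and Axin2. Alternatives were other scalings, probe set rules, level filters, variance models, weights, thresholds, a replicate block and leaving out arrays. Scanner files, scan dates and detection calls were not used here.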

Additional observations from a re-analysis of the deposited data

How the results depend on the processing

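Leaving out single arrays, the number of the 36 ribosome biogenesis genes called was 1 to 3, that of 242 further pathway genes 4 to 15 and that of all genes 1254 (without CHIR99021 replicate 2) to 2247, and the median of the 36 was -0.10 to -0.057. By ordinary least squares the counts were 1, 1 and 639. Arrays weighted by quality gave 5, 17 and 2857. Testing all probe sets gave 1 and 3, and a threshold of 0.01 gave 1 of the 36 and 1118 of all genes. Same-numbered arrays did not deviate together (correlations -0.096, 0.060 and -0.14), and the replicate block gave 1 of the 36 (Nle1; Srm at adjusted p = 0.0564, limma) and 1578 of all genes, and Mga was at 0.0569. Without both CHIR99021 replicate 3 and XAV939 replicate 1, chosen after seeing the data, 12 pathway genes were called and the median of the 36 was -0.12. Each setting left the higher count of the 36 at 0 and their median negative. Signs turned only in genes near 0. Tcof1 was at -4.6e-04 with centred arrays, -0.0044 quantile normalised again, -0.011 with weights, -0.026 without both arrays and -0.021 to 0.020 leaving out single ones. Nop16 was at -0.045, -0.094 and -0.069 to 0.063 under the last 3 of these. Pes1 was at -0.0024 without both arrays. Leaving out single arrays, Pes1 was at -0.0050 to 0.047, Npm1 at -0.099 to 0.015, Ubtf at -0.033 to 0.016, Nop2 at -0.064 to 0.041 and Gar1 at -0.078 to 0.0048. The cause of these shifts was not tested.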
